A study of Homo sapiens with 6 samples.

Results

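The imprinted domain on human chromosome 14 that runs between DLK1 and MEG9 was represented on the arrays by 57 annotated rows out of 31135. Its rows were lower in BE(2)-C cells treated with NCT-503 than in cells given DMSO, with a median log2 change of -2.24. The members were DLK1, 2 rows of the noncoding RNA gene MEG3, 2 rows annotated to RTL1, MEG9 and 51 microRNA rows. They were chosen by annotation and by probe set number, taking the annotated rows of one number run up to the row of MEG9 and adding DLK1, the first MEG3 row and the second RTL1 row. The domain was picked out because of how its rows differed between NCT-503 and DMSO, so the members' values below are a description of that contrast and no test is drawn from them.

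BE(2)-C is an established human neuroblastoma cell line, and NCT-503 is an inhibitor of PHGDH, the enzyme that commits a glycolytic intermediate to serine synthesis. Cells received 10 µM NCT-503 for 2 days, or the DMSO vehicle for the same 2 days, and total RNA was hybridised to Affymetrix whole-transcript arrays. Each group had 3 arrays, here called a, b and c after the sample names. The labels call the samples independent without saying whether they were separate cultures, so the spread between arrays may be technical, and the p-values given for other genes measure only that spread. All arrays came from 1 cell line, and in such bulk RNA fewer cells of a type and less RNA per cell cannot be told apart.

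Genomic imprinting silences one parental copy of a gene, and this domain is a textbook case. DLK1, a transmembrane relative of the Notch ligands, and RTL1, a protein derived from a retrotransposon, are expressed in most tissues from the paternal copy. MEG3, MEG8, MEG9, the small nucleolar RNAs and the microRNAs are expressed from the maternal copy, and many of the microRNAs are thought to be cut from long shared transcripts that continue beyond MEG3. A microRNA is released from a hairpin by the Microprocessor and Dicer, and its seed, bases 2 to 8, does most of the work of recognising target mRNAs. In rat neurons the large microRNA group of this domain is induced by neuronal activity through MEF2. The deposited rows do not separate primary transcript, hairpin and mature RNA, so each value is a signal from a microRNA locus.

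The 8 microRNA rows with the largest falls had 7 mature microRNA names, arm suffixes aside, since a pair of loci shares its mature sequences. The mature sequences of all these loci are shown so that their seeds can be compared. All lie on the plus strand of chromosome 14 in GRCh38.p14, the sequences are those of RefSeq, and capitals mark the seed. The hairpins of these loci start between MIR493 at chr14:100869060-100869148 and MIR154 further along the chromosome.
hsa-miR-544a: aUUCUGCAuuuuuagcaaguuc
hsa-miR-376b-5p: cGUGGAUAuuccuucuauguuu
hsa-miR-376b-3p: aUCAUAGAggaaaauccauguu
hsa-miR-382-5p: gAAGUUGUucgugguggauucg
hsa-miR-382-3p: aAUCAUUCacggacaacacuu
hsa-miR-329-5p: gAGGUUUUcuggguuucuguuuc
hsa-miR-329-3p: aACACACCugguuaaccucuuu
hsa-miR-493-5p: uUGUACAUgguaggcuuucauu
hsa-miR-493-3p: uGAAGGUCuacugugugccagg
hsa-miR-889-5p: aAUGGCUGuccguaguaugguc
hsa-miR-889-3p: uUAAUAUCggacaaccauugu
hsa-miR-154-5p: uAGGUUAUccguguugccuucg
hsa-miR-154-3p: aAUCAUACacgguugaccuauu
The seeds of these 13 arms are all different, so the strongest falls did not share a single seed.

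The hairpins of 3 of these loci show the longer context, again on the plus strand of GRCh38.p14 and from RefSeq. Capitals mark the mature arms. MIR544A lies at chr14:101048658-101048748, MIR382 at chr14:101054306-101054381 and MIR493 at chr14:100869060-100869148.
MIR544A hairpin: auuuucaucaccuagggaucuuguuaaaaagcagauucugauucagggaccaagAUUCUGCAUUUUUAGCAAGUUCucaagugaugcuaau
MIR382 hairpin: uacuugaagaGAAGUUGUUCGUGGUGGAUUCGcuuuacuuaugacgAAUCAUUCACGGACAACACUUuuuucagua
MIR493 hairpin: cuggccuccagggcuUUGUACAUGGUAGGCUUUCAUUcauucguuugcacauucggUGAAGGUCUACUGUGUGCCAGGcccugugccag
MIR544A lies inside the annotated span of the noncoding host gene MIR381HG, together with MIR381, MIR487B, MIR539, MIR889 and MIR655.

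The members fell together. Of the 57 rows, 55 were called lower and 0 were called higher with NCT-503, against 13.2% of all rows called lower and 11.6% called higher. A call means an adjusted p under 0.05 in limma with Benjamini-Hochberg adjustment over all 31135 rows. Because the contrast chose the members, the count says nothing beyond what the choice put in. The 2 rows without a call were MIR376A1 and MIR487A. In 55 rows every NCT-503 array lay below every DMSO array, which was so in 18.9% of all rows, and the same 2 rows were the ones that overlapped. A fall of at least 4-fold, a log2 change of -2 or below, was found in 33 members and in 0.453% of all rows.

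The size of the fall varied widely among members. Their log2 changes ran between -4.70 and -0.13, with quartiles of -3.17 and -1.33, and 47 of the 57 fell by at least 2-fold. The median of the 51 microRNA rows was -2.41, and 17 of them fell by at least 8-fold. Across all rows of the array the median log2 change was 0.07.

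The shift was alike from array to array. The median value of the members was 3.22, 3.22 and 3.21 in the NCT-503 arrays, against 5.94, 5.94 and 5.87 in the DMSO arrays, on the deposited log2 scale. No array stood apart from its group in this median. The median over all rows lay between 4.3 and 4.33 in the 6 arrays, while the 75th percentile was 6.03 to 6.08 with NCT-503 and 6.16 to 6.19 with DMSO. Array values correlated at 0.990 to 0.993 within groups and at 0.971 to 0.972 between groups, across rows, which are not independent replicates.

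**Figure D1:**
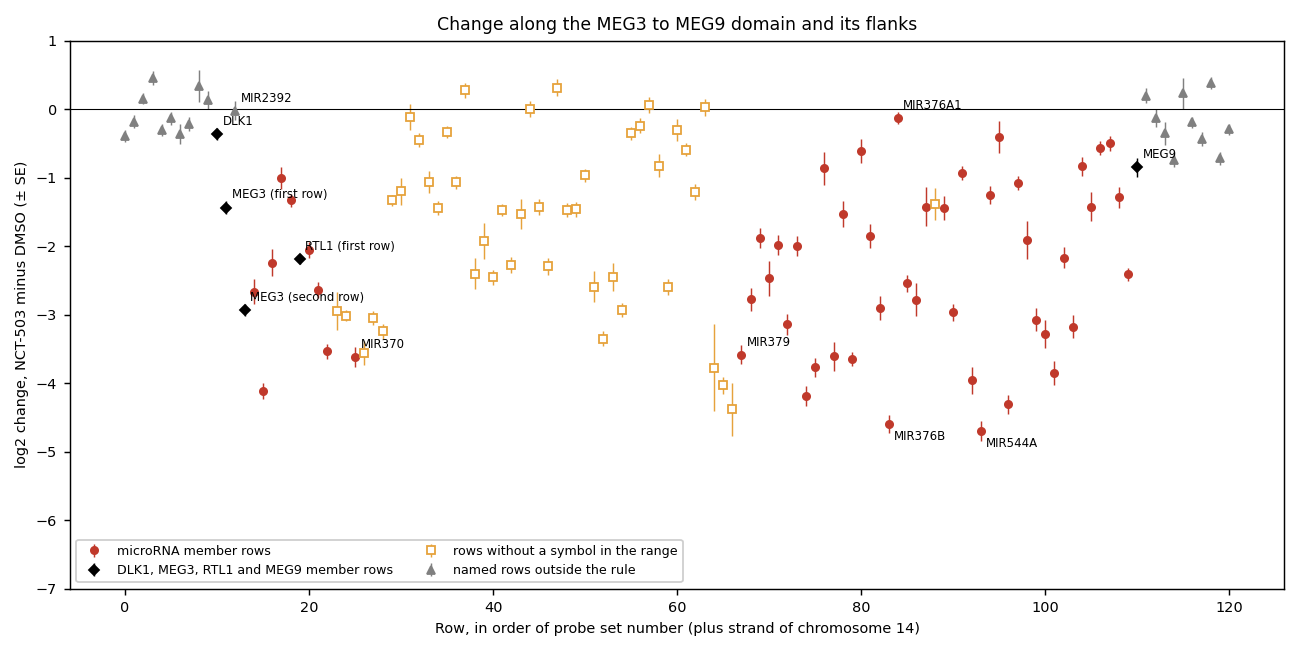
Log2 change, NCT-503 minus DMSO, with its standard error (vertical axis) for the rows of the domain in order of probe set number (horizontal axis), 3 arrays per group. Filled red circles are microRNA members, black diamonds the DLK1, MEG3, RTL1 and MEG9 members, open squares the 44 rows without a symbol, and grey triangles named rows outside the rule. The red circles reach -4.70 at MIR544A, while the 20 flanking rows stay between -0.75 and 0.45, and the second RTL1 row, on the other number run, is not drawn.

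The probe set numbers followed the chromosome. The 54 distinct named loci of the domain other than RTL1 stood in the order of their RefSeq start positions. The RTL1 row of this number run did not, since the RTL1 span begins before MIR431 and the row stands after it. Of 249 named chromosome 14 rows before the numbers restart, 245 belong to genes on the plus strand, and of 181 after the restart 179 belong to genes on the minus strand. The second RTL1 row lies after the restart, with the minus-strand genes. RefSeq places 52 microRNA genes between MIR770 and MIR656, and 51 of them had a named row, the exception being MIR433.

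DLK1, at the start of the domain, showed the smallest fall among the protein-coding and long noncoding members. Its values were 11.04, 11.16 and 11.03 with NCT-503, against 11.43, 11.46 and 11.43 with DMSO. The groups did not overlap, but the difference was small, at -0.36 ± 0.08 on the log2 scale (SE, n = 3 per group), or 1.29-fold lower. DLK1 was no longer among the rows called lower when DMSO a, b or c was left out, with changes of -0.37, -0.35 and -0.37, or at an adjusted p under 0.01.

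MEG3, the maternally expressed noncoding RNA, was lower in both of its rows. The first row read 7.44, 7.37 and 7.22 with NCT-503, against 8.80, 8.85 and 8.69 with DMSO, a log2 change of -1.44 ± 0.10 (SE). The second row read 6.53, 6.45 and 6.64 with NCT-503, against 9.49, 9.45 and 9.49 with DMSO, a log2 change of -2.94 ± 0.09. Neither row's groups overlapped. The rows differed in size, 2.70-fold lower in the first and 7.65-fold lower in the second, and the deposited table does not say which part of the gene each row covers. MIR770, whose hairpin lies inside the MEG3 span, changed by -2.67 ± 0.18.

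The promoter of MEG3 is shown because the maternal transcripts of the domain are thought to start there. It covers chr14:100825858-100826157 on the plus strand of GRCh38.p14, 250 bases before and 50 after the RefSeq start, and capitals mark 3 motifs.
MEG3 promoter: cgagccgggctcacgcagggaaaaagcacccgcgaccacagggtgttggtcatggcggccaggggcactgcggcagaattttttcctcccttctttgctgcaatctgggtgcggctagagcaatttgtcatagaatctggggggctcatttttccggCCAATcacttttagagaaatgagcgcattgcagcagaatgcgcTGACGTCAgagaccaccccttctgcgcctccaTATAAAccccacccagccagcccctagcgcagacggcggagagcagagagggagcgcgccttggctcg
The motifs were searched on both strands as CCAAT, TGACGTCA (the cAMP response element) and TATAAA, and they begin at -93, -50 and -18 from the start. Of 27305 RefSeq promoters of the same length, 35.7% hold CCAAT, 1.98% hold TGACGTCA and 12% hold TATAAA. The promoter of RTL1 holds CCAAT and neither of the others, and that of MEG9 holds none of the 3. A match in letters is a description and not a binding site.

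RTL1 is read from the strand opposite to MEG3, and its span covers the hairpins of MIR431, MIR127, MIR432 and MIR136. The RTL1 row among the minus-strand numbers read 4.51, 4.53 and 4.36 with NCT-503, against 7.39, 7.41 and 7.46 with DMSO, a log2 change of -2.95 ± 0.09 or 7.75-fold lower. A further row annotated to RTL1 stands among the plus-strand numbers, between MIR431 and MIR127, where RefSeq places MIR433. It read 5.73, 5.79 and 5.79 with NCT-503, against 7.90, 7.97 and 7.99 with DMSO, a log2 change of -2.19 ± 0.08. Both rows were clearly separated between groups. The annotation assigns the plus-strand row to RTL1, and which transcript it measures was not tested.

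MEG9, a noncoding RNA at the far end, read 5.22, 5.73 and 5.47 with NCT-503, against 6.40, 6.20 and 6.37 with DMSO. The groups did not overlap, and the log2 change was -0.85 ± 0.14, or 1.80-fold lower. The members at both ends of the domain, DLK1 and MEG9, thus had changes smaller than the -2.24 median of all members, without a test of that difference.

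The microRNA rows next to MEG3 came first in chromosome order. In the stretch between MIR493 and MIR136, which includes the plus-strand RTL1 row, 8 of 8 rows were called lower, beside 13.2% of all rows. Their median change was -2.21, and the contrast had chosen these rows. MIR493 read 3.02, 2.98 and 2.92 with NCT-503, against 7.12, 7.27 and 6.86 with DMSO, a log2 change of -4.11 ± 0.12 or 17.3-fold lower. Its groups lay far apart and varied little within themselves. MIR136 changed by -3.54 ± 0.11, MIR432 by -2.64 ± 0.11 and MIR337 by -2.24 ± 0.20. MIR127, whose product in mouse is antisense to the Rtl1 transcript, changed by -2.05 ± 0.12. The smaller falls of the stretch were -1.33 ± 0.09 for MIR431 and -1.0 ± 0.16 for MIR665. MIR370, which lies inside the MEG8 span, changed by -3.61 ± 0.15.

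The large group between MIR379 and MIR656 held 42 rows, of which 40 (95.2%) were called lower, beside 13.2% of all rows. Their median change was -2.29, and here too the contrast had chosen the rows. MIR544A fell furthest of all 31135 rows. It read 2.43, 2.12 and 2.62 with NCT-503, against 6.95, 7.12 and 7.19 with DMSO, a log2 change of -4.70 ± 0.14 or 26.0-fold lower. MIR376B read 1.92, 1.48 and 1.78 with NCT-503, against 6.40, 6.22 and 6.36 with DMSO, a log2 change of -4.60 ± 0.13 or 24.2-fold lower. Both had NCT-503 values near the dim end of the array and DMSO values well above it.

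MIR382 read 3.03, 3.14 and 3.53 with NCT-503, against 7.49, 7.66 and 7.48 with DMSO, a log2 change of -4.31 ± 0.14. MIR329-1 read 4.90, 4.45 and 4.41 with NCT-503, against 8.84, 8.64 and 8.85 with DMSO, a log2 change of -4.19 ± 0.15. MIR889 read 2.00, 1.73 and 2.56 with NCT-503, against 6.12, 6.06 and 5.98 with DMSO, a log2 change of -3.96 ± 0.20. These 3 loci showed no overlap between groups, and their falls were 15.6-fold for MIR889, 18.3-fold for MIR329-1 and 19.9-fold for MIR382. MIR154 read 1.55, 1.39 and 1.94 with NCT-503, against 5.44, 5.72 and 5.26 with DMSO, a log2 change of -3.85 ± 0.17. MIR329-2 read 2.25, 2.51 and 2.58 with NCT-503, against 6.08, 6.09 and 6.47 with DMSO, a log2 change of -3.77 ± 0.14. Again every NCT-503 array lay below every DMSO array.

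Other rows of the group fell less. MIR134, which in rat neurons restrains dendritic spine size, read 5.42, 5.27 and 5.29 with NCT-503, against 6.29, 6.34 and 6.59 with DMSO, a log2 change of -1.08 ± 0.11. MIR412 read 4.80, 5.04 and 4.88 with NCT-503, against 5.59, 5.40 and 5.42 with DMSO, a log2 change of -0.56 ± 0.10. Both were separated between groups. MIR369 read 1.58, 1.56 and 1.37 with NCT-503, against 2.03, 1.83 and 2.15 with DMSO, and its change was -0.50 ± 0.11. Its row was dim in both groups.

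The 2 members without a call were of different kinds. MIR487A read 4.55, 4.99 and 4.92 with NCT-503, against 4.87, 5.75 and 5.06 with DMSO, and the groups overlapped at a log2 change of -0.41 ± 0.24. DMSO b was the highest of its 6 values. MIR376A1 read 1.00, 0.96 and 1.11 with NCT-503, against 1.07, 1.17 and 1.21 with DMSO, with a change of -0.13 ± 0.09. Its row sat at the bottom of the range in every array, where a further fall could hardly be seen.

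**Figure D2:**
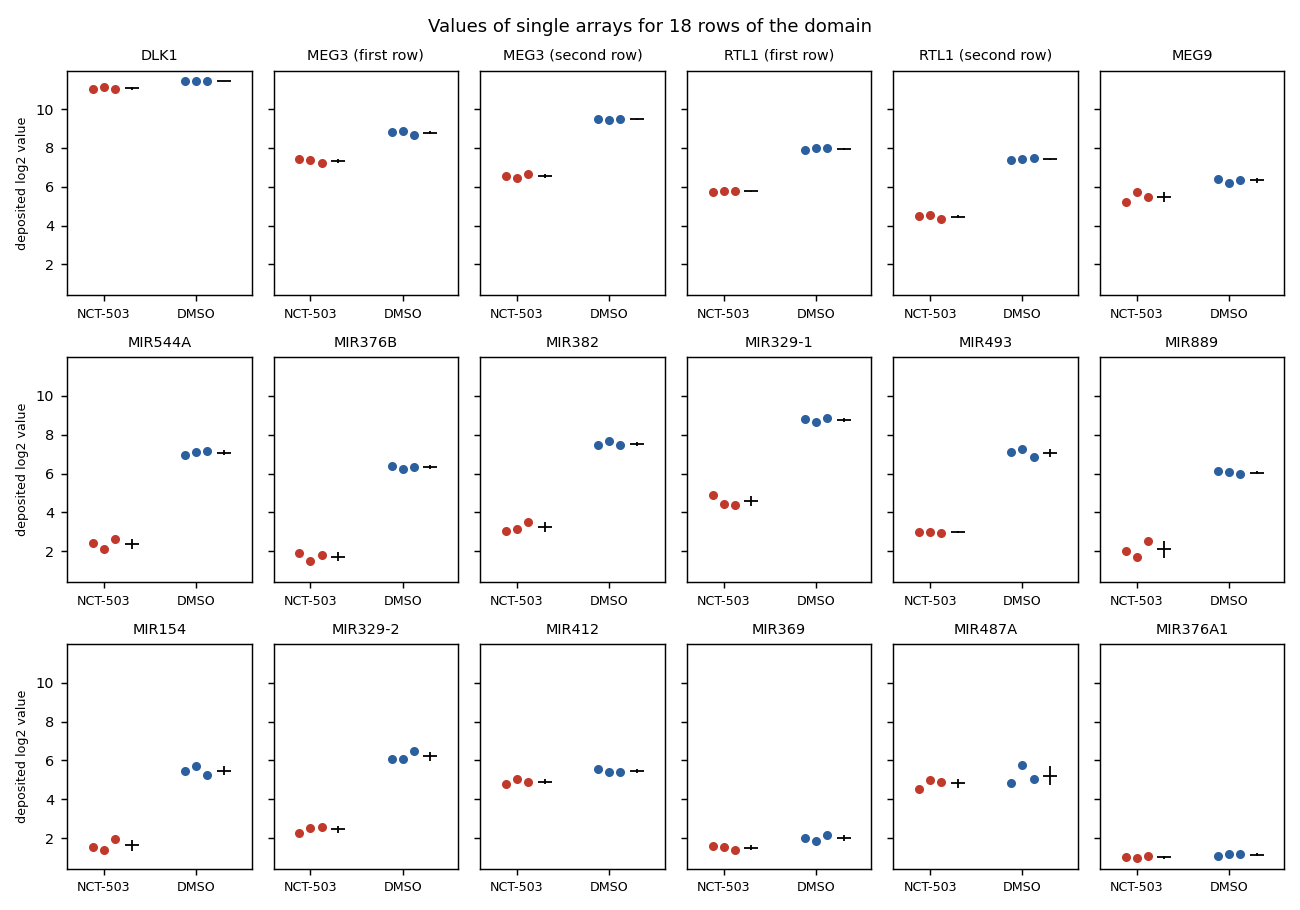
Deposited log2 values of single arrays (vertical axis, the same in every panel) for 18 rows of the domain (the long RNAs and the microRNAs with the 8 largest and 4 smallest falls), NCT-503 in red and DMSO in blue, 3 arrays each. The black mark beside each group is its mean with the standard deviation. The groups overlap for MIR487A and MIR376A1 and are separate in the other 16 panels.

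Brightness bears on these sizes. A row was called dim when its mean over the 6 arrays lay under 3.06, the 25th percentile of all rows. Among members, 25 had a group mean under that level with NCT-503, against 3 with DMSO. No background reading per array was used here, so for rows that end near the bottom of the range the true fall may be larger than the fitted one. By the mean over all 6 arrays 7 members were dim. That mean includes the low NCT-503 values, so a member can count as bright through its DMSO arrays alone.

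The spread between arrays was larger on the low side. The median standard deviation over members was 0.24 with NCT-503, against 0.12 with DMSO, and 38 of the 57 members had the larger standard deviation with NCT-503. The highest was 0.59, for MIR668 with NCT-503, whose change was -1.91 ± 0.27. The median standard error of a member's change was 0.14, and that of all rows was 0.12.

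Several microRNAs of the domain are near-copies of one another, and their rows did not change alike. The MIR376 hairpins are shown because they hold both one of the largest falls and the row with the smallest. They lie on the plus strand of GRCh38.p14 at chr14:101039690-101039755 for MIR376C, chr14:101040069-101040148 for MIR376A2, chr14:101040436-101040535 for MIR376B and chr14:101040782-101040849 for MIR376A1. Capitals mark the mature arms, and the sequences are from RefSeq.
MIR376C hairpin: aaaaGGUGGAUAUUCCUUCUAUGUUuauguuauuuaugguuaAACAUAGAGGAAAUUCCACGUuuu
MIR376A2 hairpin: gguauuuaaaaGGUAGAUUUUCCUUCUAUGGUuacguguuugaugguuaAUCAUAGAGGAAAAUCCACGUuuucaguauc
MIR376B hairpin: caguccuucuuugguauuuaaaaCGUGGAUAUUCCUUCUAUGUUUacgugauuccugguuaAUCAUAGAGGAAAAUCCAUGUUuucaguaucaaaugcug
MIR376A1 hairpin: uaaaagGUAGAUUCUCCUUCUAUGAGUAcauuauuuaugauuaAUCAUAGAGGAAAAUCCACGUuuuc
MIR376A2 and MIR376B were identical at 72 of 80 aligned bases, MIR376A2 and MIR376A1 at 60 of 68, and MIR376C and MIR376B at 58 of 66. Rows of such copies may share probes or signal, and the sources used here do not say how the platform's annotation separated them.

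The seed UCAUAGA is carried by 3 hairpins of this family, with 2 distinct mature sequences. Capitals mark the seed.
hsa-miR-376a-3p: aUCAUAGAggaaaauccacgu
The arm of MIR376B, printed earlier as hsa-miR-376b-3p, has the same seed, and the hsa-miR-376a-3p arm comes from both MIR376A1 and MIR376A2. MIR376A2 read 3.51, 4.25 and 3.86 with NCT-503, against 5.73, 5.69 and 5.75 with DMSO, a log2 change of -1.85 ± 0.18. MIR376C read 1.52, 0.82 and 1.27 with NCT-503, against 1.76, 1.89 and 1.80 with DMSO, a log2 change of -0.61 ± 0.17. MIR376A1 and MIR376C were dim in both groups, whereas MIR376A2 and MIR376B were bright with DMSO. Loci that can yield the same seed therefore ran between -4.60 and -0.13, the last being the dim MIR376A1 row. MIR376C lost its call when any array but NCT-503 a was left out, with a change of -0.61 in the full set.

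The MIR329 and MIR1185 pairs are closer still. The 4 hairpins are shown because the members of a pair differ by few bases. They lie at chr14:101026785-101026864, chr14:101027100-101027183, chr14:101042977-101043062 and chr14:101044198-101044283 on the plus strand of GRCh38.p14, in the order given, with mature arms in capitals.
MIR329-1 hairpin: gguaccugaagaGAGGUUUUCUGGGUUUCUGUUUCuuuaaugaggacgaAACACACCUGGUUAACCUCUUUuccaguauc
MIR329-2 hairpin: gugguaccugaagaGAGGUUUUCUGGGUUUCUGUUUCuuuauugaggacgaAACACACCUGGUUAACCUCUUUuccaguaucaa
MIR1185-1 hairpin: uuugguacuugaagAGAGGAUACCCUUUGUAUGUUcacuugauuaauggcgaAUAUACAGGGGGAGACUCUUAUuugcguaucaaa
MIR1185-2 hairpin: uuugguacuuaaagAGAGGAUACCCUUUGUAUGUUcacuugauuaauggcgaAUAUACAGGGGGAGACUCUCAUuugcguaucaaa
MIR329-1 and MIR329-2 matched at 79 of 80 bases, or 98.8%, and changed by -4.19 and -3.77. MIR1185-1 and MIR1185-2 matched at 84 of 86 bases, or 97.7%. MIR1185-1 read 3.02, 3.69 and 2.64 with NCT-503, against 5.82, 5.94 and 5.92 with DMSO, a log2 change of -2.78 ± 0.24. MIR1185-2 read 3.22, 3.93 and 3.13 with NCT-503, against 4.31, 5.11 and 5.12 with DMSO, a log2 change of -1.42 ± 0.28. In both rows NCT-503 b was the highest array of its group, and in MIR1185-2 DMSO a was the lowest of its group. For the MIR329 pair RefSeq gives only 1 mature sequence per arm, so a change of the mature microRNA could not be assigned to either locus.

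**Figure D3:**
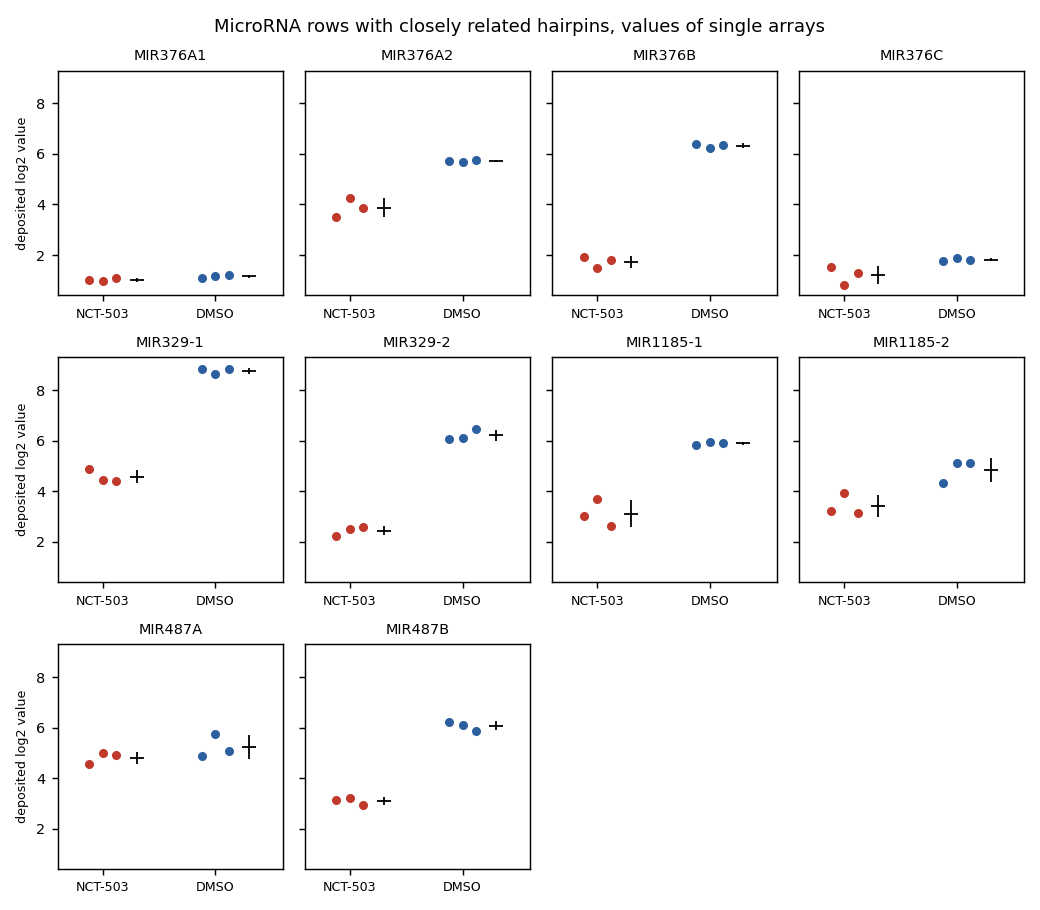
Deposited log2 values of single arrays (vertical axis, shared) for 10 microRNA rows with related hairpins, NCT-503 in red and DMSO in blue, 3 arrays each, with each group's mean and standard deviation in black. MIR376B changed by -4.60 and MIR329-1 by -4.19, while MIR376A1 and MIR376C are low in both groups and MIR487A overlaps.

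Shared seeds were common across the whole set. All 51 microRNA members had a mature sequence in RefSeq, giving 93 arms with 78 distinct seeds, and 13 seeds were shared by at least 2 members, 22 members in all. The seed GUGGAUA joins MIR376B, at -4.60, with MIR376C, at -0.61 and dim in both groups. Some other arms that join loci of unlike change are shown with the seed in capitals, on the plus strand of GRCh38.p14.
hsa-miR-487a-5p: gUGGUUAUcccugcuguguucg
hsa-miR-487b-5p: gUGGUUAUcccuguccuguucg
hsa-miR-487a-3p: aAUCAUACagggacauccaguu
hsa-miR-323b-5p: aGGUUGUCcguggugaguucgca
hsa-miR-410-5p: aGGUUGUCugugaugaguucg
hsa-miR-494-5p: aGGUUGUCcguguugucuucucu
hsa-miR-300: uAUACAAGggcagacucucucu
hsa-miR-381-3p: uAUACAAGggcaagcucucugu
hsa-miR-485-3p: gUCAUACAcggcucuccucucu
hsa-miR-539-3p: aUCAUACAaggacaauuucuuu
hsa-miR-654-5p: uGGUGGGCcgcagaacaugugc
hsa-miR-541-3p: uGGUGGGCacagaaucuggacu
The seed UGGUUAU joins MIR487A, at -0.41 ± 0.24, with MIR487B, which read 3.16, 3.23 and 2.92 with NCT-503, against 6.21, 6.12 and 5.87 with DMSO, a change of -2.96 ± 0.13. The seed AUCAUAC joins MIR487A with MIR154, at -3.85. GGUUGUC is carried by MIR323B at -3.28 ± 0.20, MIR410 at -1.28 ± 0.15 and MIR494 at -0.86 ± 0.24. AUACAAG is carried by MIR300 at -2.54 ± 0.12 and MIR381 at -1.45 ± 0.17. MIR410 and MIR381 were dim by the mean over all arrays, so a large fall had less room to show. Their DMSO means were 3.33 and 3.70, against 6.77 for MIR323B and 5.03 for MIR300. UCAUACA is carried by MIR485 at -3.07 ± 0.17 and MIR539 at -0.93 ± 0.10, and GGUGGGC by MIR654 at -2.90 ± 0.18 and MIR541 at -0.83 ± 0.13. These arms were picked for the unlike changes of their loci, so they do not describe shared seeds in general.

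The gap was smaller in other pairs, such as MIR329-1 and MIR329-2, at -4.19 and -3.77. MIR379 and MIR411 share the seed AUGUAAC on their 3′ arms, shown with the seed in capitals.
hsa-miR-379-3p: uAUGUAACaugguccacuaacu
hsa-miR-411-3p: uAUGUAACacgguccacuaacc
MIR379 read 1.59, 2.14 and 1.90 with NCT-503, against 5.47, 5.55 and 5.37 with DMSO, a change of -3.58 ± 0.14. MIR411 read 1.54, 1.79 and 1.08 with NCT-503, against 4.19, 4.32 and 4.23 with DMSO, a change of -2.78 ± 0.17. Neither overlapped between groups. MIR411 was dim by the mean over all arrays and started lower, with a DMSO mean of 4.25 against 5.46 for MIR379. Its fall therefore had less room to show, and the difference between the MIR379 and MIR411 changes was not tested.

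Composition and position went with little of the variation between microRNA rows. Over the 47 members with a hairpin in the RefSeq sequences, GC content ran between 28.8% and 65.3%, with a median of 41.8%. Its Pearson correlation with the log2 change was -0.01 (n = 47), over hairpins that share arrays and in part sequence. The correlation of the change with the mean value over all arrays was -0.22, and with order along the chromosome it was 0.20 (n = 51 for both). The mean over all arrays is itself lowered by the fall, so -0.22 does not describe how the change went with the DMSO level. That relation was not computed.

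The same number range held 44 rows without a gene symbol, which are kept apart from the members and are not named here. Of these, 36 (81.8%) were called lower and 0 higher, beside 13.2% and 11.6% of all rows. Their median log2 change was -1.45, with a range of -4.38 to 0.32. Their median value was 6.15, 6.36 and 6.46 in the NCT-503 arrays, against 8.59, 8.71 and 8.59 in the DMSO arrays. In 37 rows every NCT-503 array lay below every DMSO array, and 17 had a change of -2 or below. None was dim.

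Most of these rows, 41, stood between MIR370 and MIR379, a stretch in which RefSeq places 47 genes, 45 of them small nucleolar RNA genes. There 33 (80.5%) were called lower, beside 13.2% of all rows, with a median of -1.44. The row 16788703 read 3.81, 5.08 and 5.55 with NCT-503, against 9.12, 9.20 and 9.27 with DMSO, a log2 change of -4.38 ± 0.39. The row 16788701 read 4.83, 5.17 and 5.18 with NCT-503, against 8.98, 9.17 and 9.13 with DMSO, a change of -4.03 ± 0.12. Both groups were far apart in each row, although NCT-503 a was well below the other NCT-503 arrays in the first. The row 16788699 read 4.78, 2.79 and 1.94 with NCT-503, against 7.14, 6.94 and 6.74 with DMSO, a change of -3.77 ± 0.63, and its NCT-503 arrays were widely spread.

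Not every row of that stretch moved. The row 16788659 read 9.15, 9.11 and 8.79 with NCT-503, against 8.58, 8.83 and 8.70 with DMSO, a change of 0.32 ± 0.12. The row 16788620 read 9.88, 9.87 and 9.64 with NCT-503, against 9.43, 9.69 and 9.45 with DMSO, a change of 0.28 ± 0.11. The groups overlapped in both. The row 16788697 read 9.88, 9.76 and 9.48 with NCT-503, against 9.61, 9.78 and 9.66 with DMSO, a change of 0.03 ± 0.12, and stands in number order just before the 3 unnamed rows with the largest falls. In all, 11 of the 44 rows had a change of less than 0.5 in either direction.

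Outside that stretch, the 2 rows between MIR136 and MIR370, where RefSeq places MEG8 and a small nucleolar RNA gene, also fell. The row 16788540 read 5.90, 4.99 and 4.78 with NCT-503, against 8.0, 8.38 and 8.12 with DMSO, a change of -2.94 ± 0.28. The row 16788542 read 6.16, 6.11 and 6.25 with NCT-503, against 9.16, 9.24 and 9.16 with DMSO, a change of -3.01 ± 0.08. Neither overlapped between groups. The row 16788753, between MIR1185-2 and MIR381, read 2.97, 3.17 and 3.95 with NCT-503, against 4.81, 4.70 and 4.73 with DMSO, a change of -1.38 ± 0.23.

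Many of the strongest falls of the array lay here. Of the 141 rows with a log2 change of -2 or below, 33 were members, 17 were unnamed rows of the range and 91 were other rows. Of the 20 lowest changes, 12 were members, 4 unnamed rows of the range and 4 other rows.

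The 1054 other microRNA rows of the array, host gene rows included, had a median log2 change of 0.02, with quartiles of -0.21 and 0.21, beside -2.41 for the microRNA rows of the domain. Of the 1054, 117 (11.1%) were called lower and 58 (5.5%) higher, beside 13.2% and 11.6% of all rows. A change of -2 or below was found in 13. With arrays centred on their 75th percentile the calls were 104 lower and 131 higher, and leaving out any 1 array gave 38 to 50 higher, with 38 without DMSO a and without DMSO c. Over the 553 that were not dim, 100 were lower and 42 higher, with a median of -0.01. The largest changes were -3.37 ± 0.13 for MIR3942, -2.78 ± 0.10 for MIR573, -2.61 ± 0.09 for MIR27B and 2.53 ± 0.23 for MIR3136, with limma adjusted p-values of 1.59e-05, 9.79e-06, 8.28e-06 and 0.000334.

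**Figure D4:**
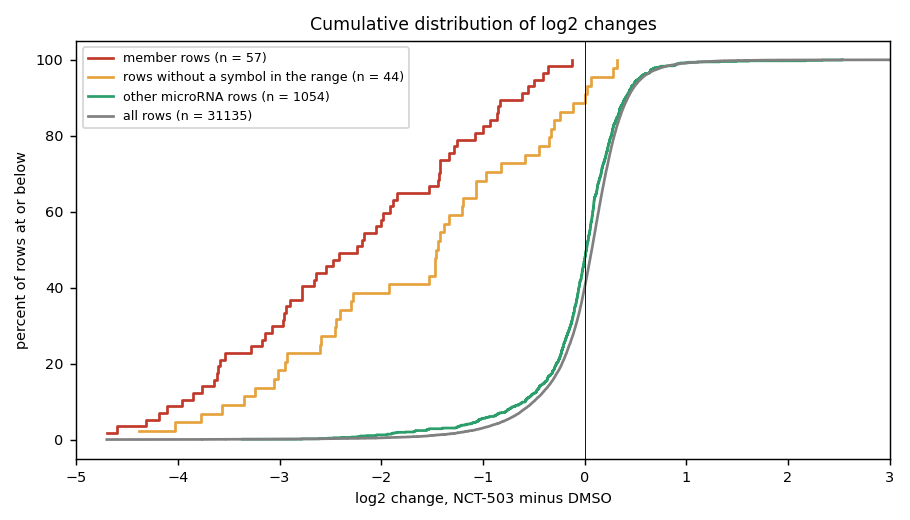
Cumulative percentage of rows (vertical axis) at or below each log2 change, NCT-503 minus DMSO (horizontal axis), for the 57 members, the 44 rows without a symbol in the range, the 1054 other microRNA rows and all 31135 rows. The members cross the middle at -2.24 and the rows without a symbol at -1.45, while the other microRNA rows cross at 0.02 and all rows at 0.07.

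Rows just outside the rule had changes smaller than the members' median, although BEGAIN changed more than the members DLK1, MIR487A and MIR376A1. MIR2392, which stands in number order between the MEG3 rows and which the rule leaves out, read 5.87, 5.95 and 5.76 with NCT-503, against 5.67, 5.82 and 6.14 with DMSO, a change of -0.02 ± 0.13. A second row annotated to MEG9, on the minus-strand number run, read 4.51, 4.65 and 4.60 with NCT-503, against 4.56, 4.63 and 4.59 with DMSO, a change of -0.01 ± 0.08. Both overlapped between groups. BEGAIN, a neighbouring gene, averaged 4.61 ± 0.31 with NCT-503 and 5.06 ± 0.02 with DMSO (SD, n = 3 each), a change of -0.45 ± 0.15 that did not pass the limma test (adjusted p = 0.0691). MIR1247, at the far side, averaged 4.57 ± 0.14 with NCT-503 and 4.41 ± 0.08 with DMSO, with a change of 0.16 ± 0.10. DIO3 and DIO3OS, the imprinted genes beyond MEG9, were not analysed here.

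Among the 10 named rows before DLK1 and the 10 after MEG9, 6 (30%) were called lower and 2 (10%) higher. The shares over all rows were 13.2% and 11.6%, and over named rows 15.6% and 13.9%. The median change of the flanking rows was -0.19, with a range of -0.75 to 0.45. The change of DLK1, -0.36, lay inside that range, and those of MEG9 and both MEG3 rows lay below it. TECPR2, an autophagy protein, fell by 0.75 ± 0.09 on the log2 scale (SE; limma adjusted p = 0.00121), and EIF5, a translation initiation factor, fell by 0.72 ± 0.09 (adjusted p = 0.00157). HHIPL1 rose by 0.45 ± 0.10 (adjusted p = 0.0154) and TRAF3, a signalling adaptor, fell by 0.44 ± 0.10 (adjusted p = 0.0207). Leaving out any 1 array left 3 or 4 flanking rows lower and 0 to 3 higher. HHIPL1 lost its call without DMSO c (adjusted p = 0.0545), and TRAF3 lost its call when any 1 array other than DMSO c and NCT-503 c was left out (adjusted p of 0.0568 to 0.0642). With arrays centred on the 75th percentile, 4 flanking rows were lower and 3 higher.

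Imprinted genes elsewhere were called in shares near those of all named rows. Of 41 imprinted genes of other chromosome regions, 24 were measured, with a median change of 0.13. Of these, 4 were called lower and 4 higher, or 16.7% each way. Over all named rows the shares were 15.6% lower and 13.9% higher. GNAS-AS1, the antisense RNA of the GNAS locus, averaged 4.43 ± 0.14 with NCT-503 and 5.98 ± 0.20 with DMSO (SD, n = 3 each), a log2 change of -1.55 ± 0.13 (SE; limma adjusted p = 0.000257). KCNQ1OT1, the antisense RNA of the KCNQ1 domain, averaged 5.91 ± 0.12 with NCT-503 and 7.05 ± 0.11 with DMSO, a change of -1.15 ± 0.10 (adjusted p = 0.000319). Both of these are, like MEG3, long noncoding RNAs of imprinted domains, but other noncoding RNAs of the list did not fall. PWRN1 rose by 0.52 ± 0.13 (limma adjusted p = 0.0212), while HYMAI changed by 0.29 ± 0.12 and MIMT1 by 0.20 ± 0.10, without a call. PEG10, which like RTL1 derives from a retrotransposon, fell by 0.55 ± 0.09 on the log2 scale (adjusted p = 0.00428), and MEST rose by 0.56 ± 0.15 (adjusted p = 0.0369). MEST lost its call without DMSO a, NCT-503 a, NCT-503 b or NCT-503 c, with adjusted p-values of 0.0712 to 0.0968. Without any 1 array, 3 or 4 of the list were lower and 0 to 3 higher, the 0 being without NCT-503 a, and centring on the 75th percentile gave 4 lower and 9 higher.

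Factors that keep imprints or set DNA methylation, and the MEF2 factors, made a list of 23 genes with 18 measured. Of these, 6 (33.3%) were called lower and 2 (11.1%) higher, with a median of -0.23. The shares were 13.2% and 11.6% of all rows, and 15.6% and 13.9% of named rows. Of the 15567 rows above the 50th percentile of mean level, fitted alone, 4329 were called lower and 3793 higher. UHRF1, which brings the maintenance methyltransferase DNMT1 to newly copied DNA, averaged 6.65 ± 0.06 with NCT-503 and 8.01 ± 0.09 with DMSO (SD, n = 3 each), a change of -1.36 ± 0.09 (SE; limma adjusted p = 0.000104). MEF2D, a MEF2 family factor, averaged 8.13 ± 0.05 with NCT-503 and 7.23 ± 0.05 with DMSO, a change of 0.90 ± 0.08 (adjusted p = 0.000319). TDG, a glycosylase of active demethylation, fell by 0.71 ± 0.10 (adjusted p = 0.0025), and DNMT3B, a de novo methyltransferase, fell by 0.59 ± 0.13 (adjusted p = 0.0177). DNMT3B lost its call without DMSO c (adjusted p = 0.053) and without NCT-503 c (adjusted p = 0.0574). Without any 1 array, 3 to 5 were lower and 1 or 2 higher, with 3 lower without DMSO c, and centring on the 75th percentile gave 4 lower and 3 higher. Whether any of these genes bears on the members' change was not tested, and no methylation was measured.

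Genes of microRNA processing were measured for 14 of 25 listed, with a median of -0.60. Of these, 8 (57.1%) were called lower and 0 higher, beside 13.2% and 11.6% of all rows and 15.6% and 13.9% of named rows. DGCR8, the RNA-binding partner of DROSHA in the Microprocessor, read 3.42, 3.70 and 3.90 with NCT-503, against 6.61, 6.42 and 6.21 with DMSO. The groups were far apart, and the change was -2.74 ± 0.15 (SE; limma adjusted p = 5.65e-05). DDX5, a helicase of the Microprocessor, fell by 0.94 ± 0.08 on the log2 scale (adjusted p = 0.000288). The silencing scaffolds TNRC6C and TNRC6A fell by 0.83 ± 0.10 (adjusted p = 0.0012) and 0.73 ± 0.08 (adjusted p = 0.000581). The count of 8 was the same without any 1 array. DROSHA and DICER1 were not analysed here.

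The proteins of box C/D small nucleolar RNPs, a class of RNA the domain also encodes, were measured for 8 of 11 genes. Of these, 3 (37.5%) were called lower and 1 (12.5%) higher, with a median of -0.15. The shares over all rows were 13.2% and 11.6%, and over named rows 15.6% and 13.9%. NOP58, a core protein of these particles, fell by 0.62 ± 0.08 on the log2 scale (limma adjusted p = 0.00165), and TGS1, a cap methyltransferase, fell by 0.53 ± 0.08 (adjusted p = 0.00281). SNU13, which binds the box C/D fold, rose by 0.34 ± 0.09 (adjusted p = 0.0295), and RUVBL1, an assembly ATPase, fell by 0.29 ± 0.08 (adjusted p = 0.037). SNU13 lost its call without any 1 array other than NCT-503 c, and RUVBL1 lost its call without any 1 array other than NCT-503 a, with adjusted p-values of 0.0539 to 0.101.

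**Figure D5:**
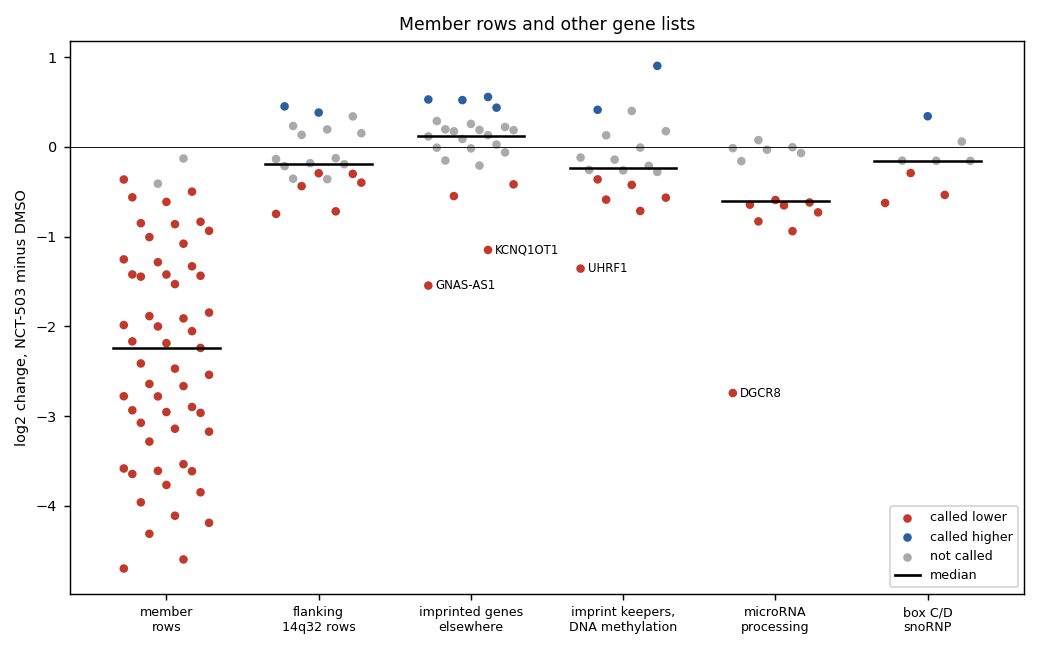
Log2 change, NCT-503 minus DMSO (vertical axis), of each measured row of the domain and of 5 other gene lists, with red for called lower, blue for called higher, grey for not called and a black line for the median. The members' median is -2.24, that of the microRNA processing genes -0.60 and those of the other 4 lists between -0.23 and 0.13.

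The cell label was checked against its markers. Of 10 adrenergic neuroblastoma markers 7 were measured, with group means between 5.88 and 10.4, and PHOX2A, a transcription factor of the sympathetic lineage, rose by 0.75 ± 0.09 (limma adjusted p = 0.00119). In the full set 3 of the 7 were called higher and 1, ISL1, lower, and the ISL1 call was lost when any 1 array was left out. The other calls of higher value were GATA3 and DBH, and neither held in the fits that left out NCT-503 b, DMSO a or DMSO c, among others. Of 12 fibroblast, leukocyte and endothelial markers 4 were measured. The NCT-503 means were 6.98 for LUM, 4.34 for DCN, 3.34 for CD14 and 3.69 for VWF, against DMSO means of 7.22 for LUM, 4.81 for DCN, 3.43 for CD14 and 3.68 for VWF. DCN was called lower (limma adjusted p = 0.0116), and its part in the members' change was not tested.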

How the data were processed

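The authors deposited 1 table of log2 values for 6 Affymetrix arrays, made with Partek per the submitters' processing notes. The sources used here do not give the background correction, the normalization or the version. The table has 31135 rows, of which 15098 carry 1 gene symbol in the platform annotation, matched by Entrez identifier to RefSeq, for 14779 genes. Precision is limited by the 3 arrays per group.

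The deposited values were fitted with limma 3.58.1 in R 4.3.3 (lmFit, eBayes, NCT-503 minus DMSO), with Benjamini-Hochberg adjustment over all rows and calls at an adjusted p under 0.05. The fit was tested on simulated data with 200 rows changed. The members and the gene lists were chosen with earlier results of these data known. Among members, array values are given for the long RNAs and the microRNA rows with the 8 largest and 4 smallest falls. They are also given for MIR134 and for rows of related sequence. Of other lists, up to 4 called genes with the largest change are named, with further noncoding RNAs of the imprinted list. Rows without a symbol are given by range and by examples chosen after their values were seen. The planned list of other small nucleolar RNA rows was not analysed here, since no row carries such a symbol. The sample letters were checked for pairing: same-letter deviations correlated at -0.01, 0.02 and 0.03, so the letters were not taken as pairs. Sequences are RefSeq's (GRCh38.p14), and hairpins were aligned with Biopython 1.88. Alternatives covered normalization, filters on dim rows, moderation, array weights, a replicate block and each array left out.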

Additional observations from a re-analysis of the deposited data

How the results depend on the processing

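All 57 members kept a log2 change below 0 under every setting that tested them, and 0 were called higher. The members were chosen for this fall, so its sign is no support. The moderation settings, the replicate block and the row filters also leave each row's change as fitted. The median change of the members, -2.24, was -2.13 after centring each array on its 75th percentile, -2.51 with rows above the 25th percentile of mean level (the same when only the members were filtered, an alternative added after seeing the data), -2.67 with rows above the 50th percentile and -2.19 with one row per gene. These filters use the mean over both groups, which the fall itself lowers, so their medians are no support for the size of the fall. Leaving out 1 array gave medians of -2.43 (without NCT-503 a) to -2.20 (without NCT-503 b) and 51 to 54 members lower. The 50th percentile filter left 35 members, 34 of them lower, with the same limit. Centring on the 75th percentile moved the median of all rows by 0.11, and the members' median lay 2.31 below it on both scales. Centring shifts every row's change by the same amount, so that distance could not differ. Over all rows the centring gave 3319 lower and 6549 higher calls, beside 4100 and 3621. No moderation gave 51 members lower, and centring on the 75th percentile gave 53. The calls lost under these settings, when 1 array was left out or at an adjusted p under 0.01 were of DLK1, MIR494, MIR376C, MIR1185-2 and MIR369. MIR494 lost its call on leaving out any 1 array other than DMSO c and NCT-503 c, and MIR369 on leaving out NCT-503 c, DMSO a or DMSO c. With the sample letters as a replicate block, 53 members were lower, 0 higher and the median was -2.24, MIR494 and MIR376C losing their calls. Same-letter arrays did not deviate together, which cannot show whether same-letter samples were prepared together. The block gave 3 flanking rows lower and 1 higher, and 2 imprinted genes elsewhere higher. Other lists moved more. Without moderation, 76 other microRNA rows were lower and 30 higher, and 0 imprinted genes elsewhere were higher. At an adjusted p under 0.01, the lower and higher counts were 75 and 18 for other microRNA rows, 2 and 0 for flanking rows, 3 and 0 for imprinted genes elsewhere, 3 and 1 for imprint and methylation factors, and 2 and 0 for box C/D proteins. Of the unnamed rows, 2 were higher with trended robust moderation and with the 75th percentile centring. Of 315 values of the 18 members shown by array, 306 kept their side of the threshold. Rows near the dim end limit the reading of 25 members under NCT-503.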
